A study of Arabidopsis thaliana with 6 samples.

Results

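miR393 is a microRNA (miRNA) family that restrains auxin receptors in Arabidopsis. The TIR1/AFB proteins are F-box receptors that bind auxin together with the Aux/IAA repressors and mark those repressors for degradation, which frees the auxin response factors to act. miR393 guides ARGONAUTE1 to the mRNAs of several of these receptors and so sets how strongly a tissue responds to auxin. In Arabidopsis it comes from a pair of precursors, MIR393a and MIR393b, which give the same 5p strand (the guide) and different 3p strands. The 3p strand of MIR393b is known from work on bacterial infection to load ARGONAUTE2 and to act on the membrane-trafficking gene MEMB12.

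Every row of the deposited table whose name column lists MIR393a or MIR393b was taken, for both arms, which gave 3 of 294 mature sequences. They are miR393a/b-5p, shared by both loci, miR393a-3p and miR393b-3p, and all 3 passed the filter on low counts that left 148 sequences for testing. The libraries are small RNA of whole Arabidopsis thaliana seedlings from shaking liquid culture, 3 biological replicates harvested 90 min after 1 µM epibrassinolide (epiBL, an active brassinosteroid) and 3 harvested 90 min after the solvent. All 6 libraries, controls included, come from plants that carry the bri1-5 receptor mutation, which arose in the Wassilewskija accession, together with a Flag-tagged wild-type BRI1 driven by the BRI1 promoter. BRI1 is the main brassinosteroid receptor, and bri1-5 is a weak allele of it. The labels used here state neither the age of the seedlings nor the number of transgenic lines. Counts per library, summed over all mature sequences, ran from 2050074 (epiBL replicate 3) to 4482479, and replicate libraries differed by more than sampling noise. In whole seedlings, fewer cells that make a miRNA and less of it per cell cannot be told apart.

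The mature sequences are shown as deposited, in DNA letters and 5′ to 3′, with the seed (bases 2 to 8) in capitals, because the strands of 1 precursor carry different seeds and the 3p strands of the 2 loci differ inside theirs.
miR393a/b-5p: tCCAAAGGgatcgcattgatcc
miR393a-3p: aTCATGCTatctctttggatt
miR393b-3p: aTCATGCGatctctttggatt
The 5p sequence has 22 bases and each 3p sequence 21. The 3p sequences differ by the substitution T8G (positions counted from 1 at the 5′ end, with the base of miR393a-3p given first). No other sequence of the same length in the table lay within 3 mismatches of a miR393 sequence. Only reads identical to the listed sequence were counted, so a read of miR393 that is 1 base shorter or longer is not in these values, and a read error at base 8 could move a read from one 3p row to the other.

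Matched to the TAIR10.1 assembly, miR393a/b-5p lay at chr2:16652111-16652132 in MIR393a (AT2G39885) and at chr3:20691657-20691678 in MIR393b (AT3G55734), both on the plus strand. miR393a-3p matched chr2:16652205-16652225 and miR393b-3p chr3:20691778-20691798, 1 site each. All 4 sites coincide with annotated mature miRNAs and none overlaps a protein-coding gene. The precursors are printed whole, with the mature arms in capitals, to show where the arms lie at the 2 loci and that the stretch between them differs in length.
MIR393a, chr2:16652101-16652233, plus strand: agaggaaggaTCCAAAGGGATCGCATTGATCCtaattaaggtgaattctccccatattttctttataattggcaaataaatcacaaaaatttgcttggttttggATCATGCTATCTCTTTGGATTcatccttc
MIR393b, chr3:20691647-20691806, plus strand: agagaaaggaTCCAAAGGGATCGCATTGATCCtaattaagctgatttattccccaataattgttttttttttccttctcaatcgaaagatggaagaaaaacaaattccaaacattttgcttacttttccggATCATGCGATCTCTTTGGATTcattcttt
The annotated MIR393a precursor is 133 bases long with 72 between its arms, and that of MIR393b is 160 bases long with 99 between them. Counting protein-coding genes only, each lies between a MYB gene and a proline transporter gene. MIR393a has MYB25 2574 bp to its left and PROT1 3344 bp to its right. MIR393b has MYB109 at 7584 bp and PROT2 at 3627 bp.

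The name of the family was checked by looking for complementary sites in the annotated mRNAs of 31346 genes of TAIR10.1. A mismatch counted 1 and a G:U pair 0.5, gaps were not allowed, and a site was listed up to a total of 3. For miR393a/b-5p this listed 4 genes, and 3 of them are the auxin receptors TIR1, AFB2 and AFB3. The other, AT3G23690 (synonym CIL2), encodes a bHLH transcription factor. The sites are written 5′ to 3′ in the mRNA sense, with capitals at bases that form no Watson-Crick pair with the miRNA.
TIR1 (AT3G62980), chr3:23273727-23273748, minus strand: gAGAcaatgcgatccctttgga
AFB2 (AT3G26810), chr3:9870237-9870258, plus strand: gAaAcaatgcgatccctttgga
AFB3 (AT1G12820), chr1:4369085-4369106, minus strand: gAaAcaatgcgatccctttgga
AFB1 (AT4G03190, listed as GRH1), chr4:1405341-1405362, minus strand: gAGAcCatgcgatccctttgga
AT3G23690, chr3:8530587-8530608, minus strand: ggGtcaGAgcgatccctttggC
All 5 sites lie in coding sequence. In TIR1, AFB2 and AFB3 positions 1 to 18 of the miRNA are paired without a break, and the unpaired bases face its 3′ end. AFB1, a further receptor of the clade, has a site with a total of 3.5, over the limit. Its unbroken pairing runs from position 1 to 16. The closest matches in AFB4 and AFB5, the more distant receptors, had totals of 6.5 and 7. For the 3p strands the same scan listed 3 genes for miR393a-3p and 5 for miR393b-3p, with none of the receptors among them. The closest match of miR393b-3p in MEMB12 had a total of 4 and lies in coding sequence. That stretch was also the closest match of miR393a-3p in MEMB12, with a total of 4.5. Whether it is the site through which miR393b-3p is known to act was not tested. A match is a description of the letters and not evidence of cleavage, and no mRNA was measured in these libraries.

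miR393b-3p was the most abundant of the 3 sequences and miR393a-3p the least abundant, in all 6 libraries. Levels are normalised counts (CPM: counts scaled to a common library total, with TMM factors). miR393b-3p had a mean of 543 CPM over the 6 libraries, miR393a/b-5p 323 CPM and miR393a-3p 107 CPM. Among all sequences in a library, miR393b-3p ranked 34 in each of the 6, miR393a/b-5p between 36 and 42, and miR393a-3p between 57 and 64. The sequences next to miR393a/b-5p in mean level were miR8183-5p (324 CPM) and miR157c-3p (306 CPM), and their libraries overlapped with its own. The 3 miR393 levels did not overlap each other in any library of either group.

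With TMM factors, the guide strand was higher and both 3p strands were lower in every epiBL library than in every control. However, none of the 3 passed the threshold of an adjusted p under 0.05. miR393a/b-5p, the strand that pairs with the receptor mRNAs, was at 308, 272 and 291 CPM in control replicates 1, 2 and 3 and at 378, 353 and 335 CPM in epiBL replicates 1, 2 and 3. The lowest epiBL library thus lay above the highest control. The control mean was 290 ± 18.3 CPM and the epiBL mean 355 ± 21.5 CPM (SD, n = 3 each), and the fitted values differed by 22.4%. The log2 fold change was 0.29 (SE 0.10, 95% interval 0.08 to 0.50), with a Benjamini-Hochberg adjusted p of 0.0771 over 148 sequences by the quasi-likelihood test of edgeR.

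miR393a-3p, the other strand of MIR393a, was at 116, 116 and 125 CPM in control replicates 1, 2 and 3 and at 93.4, 101 and 88.3 CPM in epiBL replicates 1, 2 and 3. All epiBL libraries lay below all controls. The means were 119 ± 5.48 and 94.4 ± 6.59 CPM (SD, n = 3 each). The log2 fold change was -0.32 (SE 0.11, 95% interval -0.56 to -0.09), with an adjusted p of 0.0771 in edgeR's test.

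miR393b-3p, the strand known to load ARGONAUTE2, was at 550, 602 and 612 CPM in control replicates 1, 2 and 3 and at 499.6, 546 and 451 CPM in epiBL replicates 1, 2 and 3. The groups did not overlap, though epiBL replicate 2 came close to control replicate 1. The means were 588 ± 32.9 and 499 ± 47.8 CPM (SD, n = 3 each). The log2 fold change was -0.23 (SE 0.10, 95% interval -0.45 to -0.02), with an adjusted p of 0.168 in edgeR's test.

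**Figure D1:**
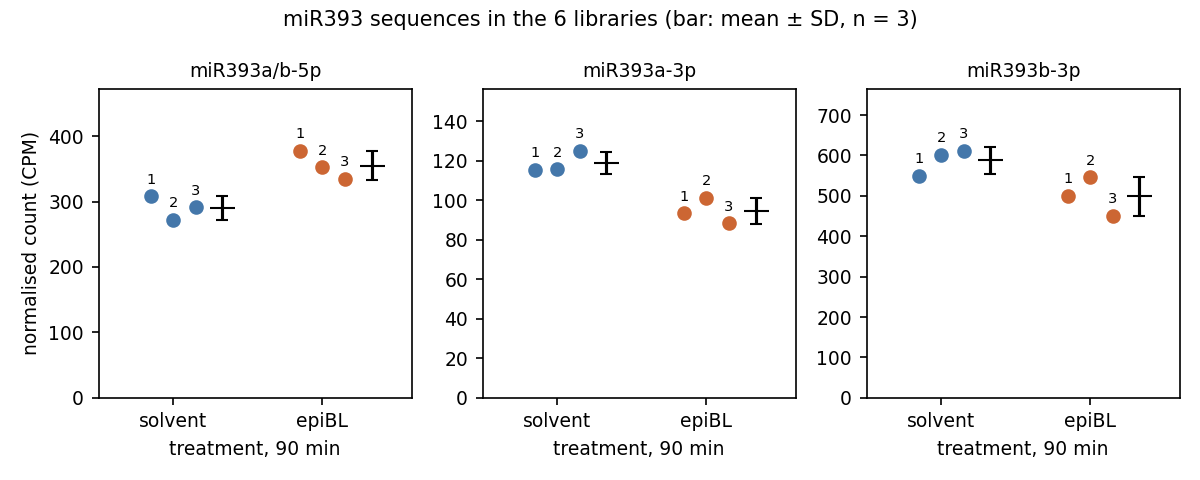
Normalised counts (CPM, y axis from 0, a scale for each panel) of the 3 miR393 sequences in each library, numbered by replicate, for solvent and epiBL, with the mean ± SD of 3 libraries beside the points. The epiBL points lie above the control points for miR393a/b-5p (355 against 290 CPM on average) and below them for both 3p sequences.

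Over all sequences, 8.11% of the 148 tested were called at an adjusted p under 0.05 (12 sequences), against 0 of the 3 miR393 sequences. All 3 had an unadjusted p under 0.05 in edgeR, a level that 23.6% of all sequences reached. With TMM factors the groups did not overlap for 3 of the 3, as for 27.7% of all sequences. The epiBL libraries lay above the controls for 1 of the 3, against 10.1% of all sequences, and below them for 2 of the 3, against 17.6%. DESeq2 called 1 of the 3, miR393a/b-5p (log2 fold change 0.32, adjusted p = 0.0331), where it called 13.4% of the 119 sequences for which it gave an adjusted p. At an adjusted p under 0.1 in edgeR's test, miR393a/b-5p and miR393a-3p would be called, 2 of the 3, against 17.6% of all sequences (26 of 148). In the authors' deposited table the unadjusted p-values were 0.00676 for miR393a/b-5p, 0.0111 for miR393a-3p and 0.0511 for miR393b-3p. Adjusted over all 294 rows, those of the authors' deposited table became 0.101, 0.121 and 0.35.

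Scaling bears on the single strands. With total counts in place of TMM factors, the median log2 fold change over all sequences shifted to -0.13. miR393a/b-5p then had 0.16 (SE 0.15, adjusted p = 0.53 in edgeR's test), and miR393a-3p had -0.45 (SE 0.16) and passed (adjusted p = 0.0418). The direction of each strand was the same under both scalings, but the separation of the groups was not. With total counts, miR393a/b-5p was at 292 CPM in epiBL replicate 3, below every control (300 to 308 CPM). miR393b-3p was at 572 CPM in epiBL replicate 2, above control replicate 1 (549 CPM). Only miR393a-3p kept its groups apart (highest epiBL library 106 CPM, lowest control 115 CPM).

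The family sum, which adds strands that lay on opposite sides, did not pass either. All miR393 counts together came to a control mean of 989 ± 17.7 CPM and an epiBL mean of 956 ± 80.0 CPM (SD, n = 3 each). Their log2 fold change was -0.05 (SE 0.09, 95% interval -0.24 to 0.14, adjusted p = 0.892 in edgeR's test over 86 families, of which 8.14% were called). It was -0.15 without epiBL replicate 2 and -0.20 with total counts, and passed in neither. The epiBL spread came mainly from replicate 3, the shallowest library, at 864 CPM, while the others were at 1003 and 1002 CPM. The 3 counted sequences made up between 0.0762% (95% Wilson interval 0.0726 to 0.0801) and 0.109% (0.106 to 0.112) of a library's counts.

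The balance of the arms needs no scaling between libraries, since both strands are counted in the same library. The ratio describes how the counted strands accumulate. Since the 5p row pools both loci, it can also depend on how much of each precursor is made. miR393a/b-5p had 2.67, 2.35 and 2.33 reads per miR393a-3p read in control replicates 1, 2 and 3. In epiBL replicates 1, 2 and 3 it had 4.04, 3.48 and 3.79. The ratio was higher in every epiBL library than in every control, with means of 2.45 ± 0.191 and 3.77 ± 0.283 (SD, n = 3 each). On the log2 scale it differed by 0.62 (SE 0.16, 95% interval 0.27 to 0.98), a 1.54-fold higher ratio. In limma's test over 45 pairs of 5p and 3p sequences of a shared locus, of which 2.22% were called, its adjusted p was 0.0734 and did not pass. An adjusted p under 0.1 would take it in, with 4.44% of the pairs.

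The ratio of miR393a/b-5p to miR393b-3p lay on the same side. There were 1.78, 2.21 and 2.10 miR393b-3p reads per 5p read in control replicates 1, 2 and 3, and 1.32, 1.55 and 1.35 in epiBL replicates 1, 2 and 3, again without overlap. The log2 ratio of 5p to miR393b-3p differed by 0.53 (SE 0.17, 95% interval 0.16 to 0.90, limma adjusted p = 0.12). Both ratios share the 5p counts, so they are not separate evidence. Ordered by p, the miR393 pairs stood at places 2 and 4 among the 45, of which 20% had an unadjusted p under 0.05 and 26.7% had groups that did not overlap. Over the 45 pairs the median change was -0.08, and 20 pairs had a higher 5p share with epiBL.

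The 5p row pools both loci, so the 5p counts were also set against the sum of both 3p rows, an alternative chosen after seeing the data. The 5p reads per 3p read numbered 0.413 ± 0.0447 in the controls and 0.601 ± 0.0494 in the epiBL libraries (SD, n = 3 each). limma's test was run over 33 sets of loci that share a sequence, single loci included, of which 3.03% were called. In it the log2 ratio differed by 0.54 (SE 0.16, adjusted p = 0.0788). An adjusted p under 0.1 would take it in, with 15.2% of the sets. The 3p share of all miR393 counts was 68.3% (95% Wilson interval 66.9 to 69.7), 72.5% (71.2 to 73.8) and 71.7% (70.3 to 73.0) in control replicates 1, 2 and 3. It was 61.1% (59.5 to 62.7), 64.7% (63.3 to 66.2) and 61.7% (59.2 to 64.1) in epiBL replicates 1, 2 and 3. The share was thus lower by 8.34 percentage points on average (two-sided exact permutation p = 0.1, the smallest that 3 against 3 libraries allow), and the intervals, which cover counting error only, did not meet between the groups.

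**Figure D2:**
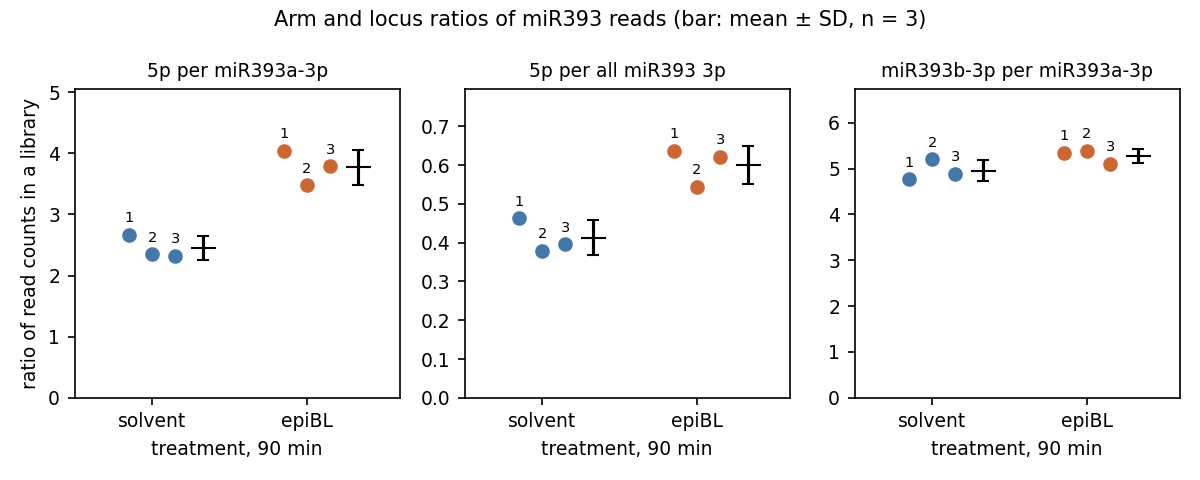
Ratios of read counts within each library (y axes from 0), numbered by replicate, with the mean ± SD of 3 libraries beside the points. 5p reads per miR393a-3p read (2.45 against 3.77 on average) and per 3p read of both loci (0.413 against 0.601) separate the groups, while miR393b-3p reads per miR393a-3p read (4.95 against 5.28) overlap.

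**Figure D3:**
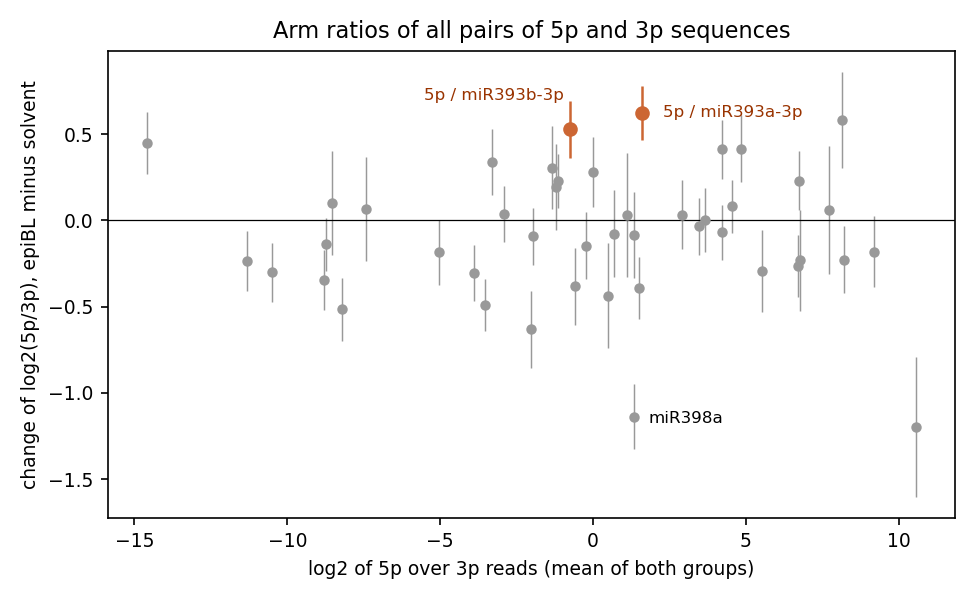
Change with epiBL of the log2 ratio of 5p to 3p reads (y axis, ± SE) against the mean log2 ratio (x axis) for 45 pairs of sequences that share a locus, with the miR393 pairs in orange. The miR393 pairs lie at 0.62 and 0.53, and miR398a, which passed the test, lies at -1.14.

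The 3p strands are the only miR393 sequences that tell the loci apart, and their proportion overlapped between the groups. miR393b-3p took 82.6% (95% Wilson interval 81.2 to 84.0), 83.9% (82.5 to 85.1) and 83.0% (81.6 to 84.3) of the 3p counts in control replicates 1, 2 and 3. It took 84.2% (82.6 to 85.7), 84.3% (82.9 to 85.6) and 83.6% (81.1 to 85.8) in epiBL replicates 1, 2 and 3. The groups overlapped, and the means of 83.2% ± 0.629 and 84.1% ± 0.399 (SD, n = 3 each) differed by 0.89 percentage points (two-sided exact permutation p = 0.2, where 3 against 3 libraries cannot go below 0.1). In reads, there were 4.95 ± 0.226 of miR393b-3p per miR393a-3p read in the controls and 5.28 ± 0.155 in the epiBL libraries (SD, n = 3 each). The proportion measures accumulated 3p strands, and how much of the 5p strand came from each locus cannot be read from it.

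Across the 6 libraries, the patterns of the 3p strands were closer to each other than to that of the 5p strand. Likeness was measured as the root mean square difference of log2 CPM, each sequence centred on its own mean, so the group difference is part of it. miR393a-3p and miR393b-3p were 0.06 apart, each the third closest to the other among 147 sequences. The 5p strand was 0.32 from miR393a-3p and 0.29 from miR393b-3p, which put them at places 100 and 89 in its order, and the median distance from it was 0.26. All sequences share the same 6 libraries and their scaling.

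The sequences closest to miR393a/b-5p were miR164a/b-5p (distance 0.04), which targets NAC1, a transcription factor of auxin-dependent lateral root formation, miR861-3p (0.08) and miR170/miR171a-5p (0.08). Their log2 fold changes were 0.29, 0.35 and 0.38, and of these miR170/miR171a-5p passed (adjusted p = 0.0403 in edgeR's test). Closest to miR393a-3p were miR399f-3p (0.03), of the family that acts on the phosphate regulator PHO2, and miR158a-5p (0.06). Closest to miR393b-3p were miR158a-5p (0.05) and miR408-3p (0.06), which targets copper proteins. miR399f-3p, miR158a-5p and miR408-3p had log2 fold changes of -0.31, -0.22 and -0.20, and none of them passed.

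miR393 was then set among the other miRNAs of auxin signalling, listed by family number and role. The list held 19 sequences of the families miR393, miR160, miR167, miR390, miR164 and miR847, of which 16 were tested. In edgeR's test 0 were called in either direction, where 2.7% of all tested sequences were called higher and 5.41% lower. At an unadjusted p under 0.05 there were 2 higher and 4 lower, the miR393 sequences being 3 of these 6, where 10.1% of all tested sequences were higher and 13.5% lower at that level. DESeq2 called 2 of the 16, both higher: miR393a/b-5p, as given above, and miR167c-3p (log2 fold change 0.55, adjusted p = 0.0268). Beside this stand 13.4% of the 119 sequences for which DESeq2 gave an adjusted p, a condition not applied to the 16. limma-trend called 0 of the 16, beside 8.11% over all sequences. The median log2 fold change of the 16 was 0.02, and that of all 148 was 0.00.

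Among regulators of auxin response factors, miR160a/b/c-5p, which targets the repressing factors ARF10, ARF16 and ARF17, had a control mean of 1596 ± 151 CPM and an epiBL mean of 1807 ± 198 CPM (SD, n = 3 each). Its log2 fold change was 0.18 (SE 0.11, adjusted p = 0.292 in edgeR's test). The groups only just failed to overlap, with the highest control at 1690 CPM and the lowest epiBL library at 1691 CPM. miR167 targets the activating factors ARF6 and ARF8. Its most abundant row was miR167a-3p (mean 12118 CPM), the arm of MIR167a opposite the guide, at -0.35 (SE 0.12). miR167d-5p was at -0.31 (SE 0.11), and both had an adjusted p of 0.0771 in edgeR's test. miR167a/b-5p, the guide from the MIR167a and MIR167b loci, was at 0.02 (SE 0.12). miR390a/b-5p, which starts the trans-acting siRNAs against ARF2, ARF3 and ARF4, was at -0.13 (SE 0.10). Among miRNAs of downstream regulators, miR164a/b-5p was at 0.29 (SE 0.15), miR164b-3p at 0.02 (SE 0.16), and miR847-3p, which targets the repressor IAA28, at -0.29 (SE 0.58) from a mean of 2.12 CPM. None of these passed in edgeR's test. Apart from miR393, the list held 13 tested sequences. All epiBL libraries lay above all controls for 2 of them, miR160a/b/c-5p and miR164a/b-5p, beside 10.1% of all sequences. They lay below for 1, miR167a-3p, beside 17.6%.

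At the precursors of the list, 8 pairs of arms were measured, the 2 of miR393 among them. Besides those of miR393, the groups did not overlap for the pair of MIR167c, where the log2 ratio of 5p to 3p differed by -0.63 (SE 0.22), opposite in sign to miR393. The groups thus did not overlap for 3 of the 8 pairs, beside 26.7% of all 45. The pair of MIR167c was singled out with its values in view. The other 5 pairs ranged from -0.29 for miR390a/b-5p to miR390a-3p to 0.34 for miR167a/b-5p to miR167a-3p, and their groups overlapped.

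**Figure D4:**
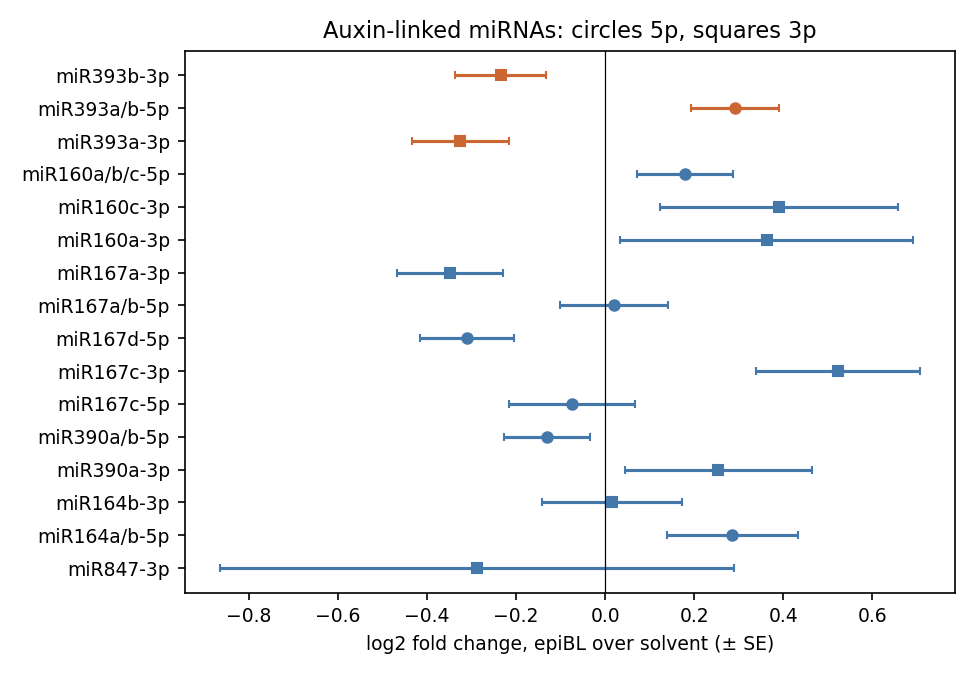
Log2 fold change with epiBL (x axis, ± SE) of the 16 tested auxin-linked sequences (y axis), grouped by family in the order miR393, miR160, miR167, miR390, miR164 and miR847, with miR393 in orange, 5p as circles and 3p as squares. None passed edgeR's test, and the values run from -0.35 to 0.52.

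Leaving out a library never changed the direction of a miR393 sequence. The log2 fold change of miR393a/b-5p then ran from 0.24 (without control replicate 2) to 0.35 (without epiBL replicate 3), and it passed in none of the 6 such fits. miR393a-3p ran from -0.37 to -0.26 and passed without epiBL replicate 2 (adjusted p = 0.0406 in edgeR's test). miR393b-3p ran from -0.29 to -0.15, the weaker end being without the shallow epiBL replicate 3, and did not pass.

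**Figure D5:**
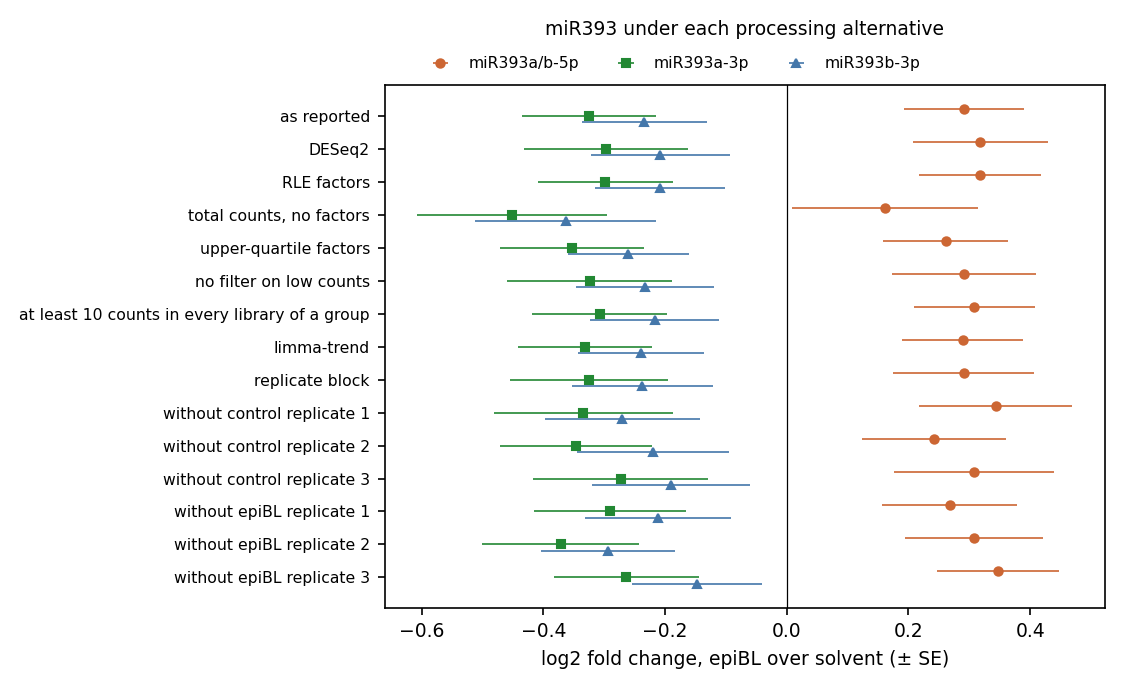
Log2 fold change with epiBL (x axis, ± SE) of the 3 miR393 sequences as reported and under 14 processing alternatives (y axis). miR393a/b-5p stays between 0.16 and 0.35, miR393a-3p between -0.45 and -0.26 and miR393b-3p between -0.36 and -0.15.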

How the data were processed

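Per the labels' protocols, the mirVana kit gave total RNA with its small fraction, and libraries made by the TruSeq small RNA protocol were sequenced on an Illumina Genome Analyzer. The authors deposited raw read counts of reads that match an annotated mature miRNA exactly, per the file headers. The same table holds the authors' own comparison: a p-value from an EDGE test, a signed fold change (a score that is negative where epiBL is lower), its log2 and the −log10 of the p-value, the last 2 recognised from their values. Per the file headers that test sets 0 min against 90 min. In the labels, solvent and epiBL plants were both treated for 90 min, and the labels are followed here. The submitters' processing notes name TAIR10, and tools for trimming and alignment were not given in the sources used here.

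Counts were filtered with edgeR's filterByExpr (minimum 10, total 15), TMM-scaled and tested with the quasi-likelihood F test (robust) over all 148 sequences (edgeR 4.0.16, limma 3.58.1, DESeq2 1.42.0, R 4.3.3, Python 3.11.15, scipy 1.17.1), after a test on simulated data. The standard error is the log2 fold change over the square root of F. Arm ratios were tested with limma on the log2 scale after adding 0.5 to each count. P-values set a difference against the spread between these samples only, whose replicates are labelled biological. In edgeR and limma the spread estimated for a row also borrows from the other rows or pairs tested. Intervals on shares cover counting error only. Named miRNAs are the miR393 rows, the most abundant and the smallest-p row of each auxin-linked family, called rows of that list, the 3 sequences most like each miR393 row, its neighbours in level, and rows within 3 mismatches. miR167a/b-5p, miR167c and miR390a-3p were added after their values were seen. The members and lists were chosen with earlier results of these data known. Alternatives were other scalings, filters and tools, a replicate block, another pseudocount, another threshold and leaving out each library.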

Additional observations from a re-analysis of the deposited data

How the results depend on the processing

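Under 14 alternatives per sequence, the 3 miR393 sequences kept their direction in all. Their side of the threshold changed in these: miR393a/b-5p passed in DESeq2 (log2 fold change 0.32), and miR393a-3p passed with total counts (-0.45) and, among fits with 1 library left out (-0.37 to -0.26), without epiBL replicate 2. At an adjusted p under 0.1, miR393a/b-5p and miR393a-3p (both 0.0771) passed, as did the arm ratio to miR393a-3p (0.0734) and that to both 3p rows (0.0788), and miR393b-3p (0.168) did not. At 0.05, the arm ratio of miR393a/b-5p to miR393a-3p passed with a pseudocount of 5 (0.61, limma adjusted p = 0.0443). Its adjusted p otherwise ran from 0.0751 to 0.213. The exact permutation test gave an unadjusted p of 0.1, the smallest that 3 against 3 libraries allow. The ratios to miR393b-3p and to both 3p rows and the family sum kept their direction and did not pass at 0.05 under any alternative run for them, though the family sum (-0.05) became -0.20 with total counts and -0.15 without epiBL replicate 2. Both shares kept their direction with each library left out, in tests that cannot reach 0.05. The number of sequences called, 12, became 22 with a replicate block, 26 at an adjusted p under 0.1 and 5 to 25 with 1 library left out: it was 25 when epiBL replicate 2 was dropped, 7 for control replicate 3, and 5 for either control replicate 2 or epiBL replicate 3. A looser threshold counts more by construction, and for the rest the cause was not tested. Libraries that share a replicate number showed no clear pairing, though 6 libraries are too few to exclude it. Their deviations correlated at -0.09, 0.14 and -0.11, and 2 of 6 libraries were closest to their own number. Under the replicate block none of the miR393 sequences passed (miR393a/b-5p adjusted p = 0.0692). Depth limits miR393a-3p most, with 158 counts in epiBL replicate 3.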
